A study of Mus musculus with 30 samples.

Results

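The striatum is built mainly of medium spiny neurons (MSNs), which send their axons out through a direct or an indirect pathway. Neurons of the direct pathway carry the dopamine receptor D1 and release dynorphin and substance P, and those of the indirect pathway carry the dopamine receptor D2 and an adenosine receptor, the product of Adora2a, and release enkephalin. The balance of the pathways is known for its part in action selection and in learning from reward, and the peptide genes of both are known to follow the activity of the neurons that make them. Transcript levels were examined for 10 genes assigned to a pathway: Drd1, Pdyn, Tac1, Chrm4 and Isl1 for the direct pathway, and Drd2, Penk, Adora2a, Gpr6 and Gpr52 for the indirect pathway, out of 50508 genes in the striatum count table and 53278 in that of the subventricular zone (SVZ). Gpr52 was not analysed here, so that 9 genes have values. In the SVZ all 9 passed the filter on low counts and were tested. In the striatum 8 passed, 4 of each pathway, and Chrm4 did not.

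The libraries came from 15 adult C57Bl/6 mice, with 1 SVZ and 1 striatum library from each mouse. NestinTK+ mice carry thymidine kinase under the second intron enhancer of Nestin, so that ganciclovir (GCV) kills their dividing endogenous neural precursor cells (eNPCs), while NestinTK- mice lack the transgene; GCV or its vehicle PBS was given for several weeks by a minipump under the skin. The ablated group held 5 NestinTK+GCV+ mice (A1 to A5), and the controls were 3 NestinTK-GCV+ (G1 to G3), 3 NestinTK-PBS+ (P1 to P3) and 4 NestinTK+PBS+ mice (T1 to T4), numbered within a group by mouse number. The labels name no batch and do not give sex, while the study's methods name male and female mice for RNA extraction. The sex of each mouse is therefore not known here. The lower library numbers all belong to GCV mice, so that in a comparison of GCV with PBS mice the drug and the numbering cannot be told apart. The Nestin enhancer drives the transgene in precursor cells, so that it marks no spiny neurons. In RNA from whole tissue fewer cells of a type and less RNA per cell cannot be told apart.

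Both tissues carried the spiny neuron program. A list of 14 genes shared by both kinds of MSN averaged a log2 CPM (CPM, counts scaled to the library size after TMM normalization, while summed marker levels are scaled to the plain total) of 9.31 ± 0.362 (SD, n = 10) in control striatum and 9.31 ± 0.327 (SD, n = 10) in control SVZ, although the SVZ libraries are labelled as neural precursor cells. The kits differ between the tissues, so these levels are set side by side and not compared. Depth was 2.63 to 4.69 M counts in the striatum libraries and 8.36 to 21.1 M counts in those of the SVZ, and the ablated libraries lay in the lower part of both ranges. Some libraries stood apart from their group. In the striatum library T2 the shared MSN list stood at -1.05 relative to the median of the 15 libraries on the log2 scale and the choroid plexus gene Ttr took 0.142% of the counts. Summed cortical excitatory markers (4 genes, among them Slc17a7 and Neurod6) exceeded 100 CPM in the striatum libraries G2 (525 CPM), T4 (311 CPM) and A4 (117 CPM) and in the SVZ libraries G2 (600.1 CPM) and A5 (368 CPM). The MSN list stood at -0.93 relative to the median in SVZ library A5 and at -0.82 in SVZ library G2. Results of the members that rest on these libraries are given with and without them.

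**Figure D1:**
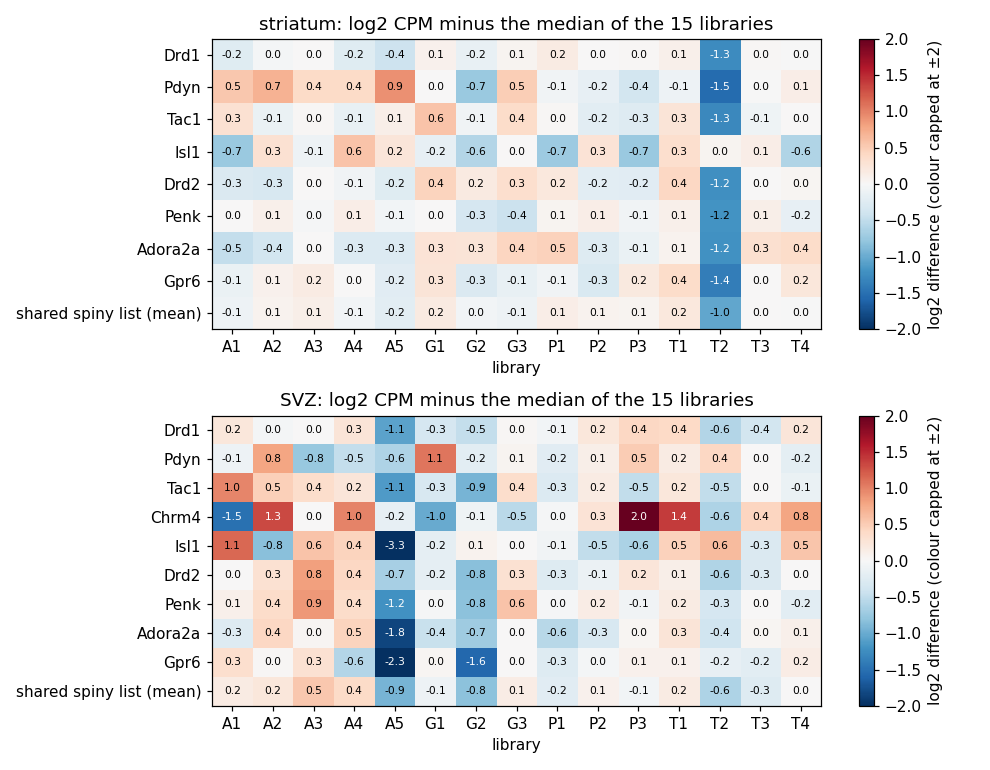
Each cell is the log2 CPM of a gene in 1 library (columns) minus its median over the 15 libraries of the tissue, for the striatum (top) and the SVZ (bottom), and the last row of each panel is the mean of the 14 shared MSN genes. In the striatum T2 is low in 7 of the 8 genes. In the SVZ A5 and P1 are below the median in all 9, with a median deviation of -1.14 in A5 and -0.225 in P1.

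Pdyn and Tac1 are printed here with their promoters because both encode direct pathway peptides, while the log2 fold change in ablated striatum was 0.76 for Pdyn and 0.044 for Tac1. Pdyn encodes prodynorphin and lies on chromosome 2, from 129686565 to 129699844 on the minus strand; Tac1 encodes the precursor of substance P and neurokinin A and lies on chromosome 6, from 7554879 to 7565834 on the plus strand (GRCm38, GENCODE vM21). Each sequence runs 5′ to 3′ from 250 bases before to 50 bases after a RefSeq transcription start on GRCm38.p6. Capitals mark CGTCA, the half-site of the cAMP response element, searched on both strands. The Pdyn window is chr2:129699889-129700188 on the minus strand and the Tac1 window is chr6:7554811-7555110 on the plus strand. This Pdyn window lies outside the GENCODE limits of the gene given above. The window of another RefSeq start of Pdyn, chr2:129698609-129698908, is not printed and holds CGTCA 0 times.
Pdyn: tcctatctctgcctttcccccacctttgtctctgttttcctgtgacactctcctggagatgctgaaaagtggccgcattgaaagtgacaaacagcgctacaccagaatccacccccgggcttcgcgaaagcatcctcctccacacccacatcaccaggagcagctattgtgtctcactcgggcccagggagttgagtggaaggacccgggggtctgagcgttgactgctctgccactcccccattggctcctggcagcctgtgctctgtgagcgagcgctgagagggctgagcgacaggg
Tac1: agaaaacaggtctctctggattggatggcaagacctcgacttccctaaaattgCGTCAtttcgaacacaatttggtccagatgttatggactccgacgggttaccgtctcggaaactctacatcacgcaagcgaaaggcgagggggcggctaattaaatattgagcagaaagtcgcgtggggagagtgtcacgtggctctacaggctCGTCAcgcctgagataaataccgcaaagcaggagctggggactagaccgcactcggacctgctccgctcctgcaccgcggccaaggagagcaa
The Tac1 window holds CGTCA 2 times, starting 197 and 43 bases before the transcription start, and the Pdyn window holds it 0 times. Of 32851 windows of this length, 20.8% hold the half-site on either strand. The other motif searched, TGANTCA (the AP-1 site), was found in neither window and in 7.81% of all windows. Of the other members in the RefSeq table, Gpr6 holds the half-site 2 times as an overlapping pair and Isl1 holds it 2 times, while the windows of Drd1, Drd2 and Chrm4 hold it 0 times. These matches describe letters in a window and nothing about a factor.

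In the striatum no member passed the test against the pooled controls, and the largest difference was in Pdyn. The ablated libraries of Pdyn stood at log2 CPM 7.81, 7.97, 7.66, 7.66 and 8.20 (A1 to A5). The NestinTK-GCV+ libraries stood at 7.28, 6.53 and 7.77, the NestinTK-PBS+ libraries at 7.20, 7.12 and 6.91, and the NestinTK+PBS+ libraries at 7.18, 5.74, 7.26 and 7.40. All 5 ablated libraries lay above all 7 PBS libraries, and of the controls only G3 reached into their range. A gap of this kind, with every ablated library above every PBS library, occurred in 0.746% of the genes tested. Pdyn averaged 234 ± 38.4 CPM in ablated mice (SD, n = 5) and 139 ± 44.2 CPM in controls (SD, n = 10), a log2 fold change of 0.76 (SE 0.194) with an unadjusted p-value of 0.000698 and an adjusted p-value of 0.110 by the quasi-likelihood test of edgeR, adjusted after Benjamini-Hochberg over 15419 genes. By unadjusted p-value Pdyn ranked 94 of the 15419. The adjusted p-value was 0.0301 without T2, the lowest of all libraries, where the log2 fold change was 0.66, and 0.0337 without G3, the highest of the controls, where it was 0.85. It was 0.0374 with DESeq2 and 0.124 without all 4 libraries that stood apart. Leaving out any other single mouse kept the adjusted p-value above 0.05, with the highest value of 0.331 without A5.

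**Figure D2:**
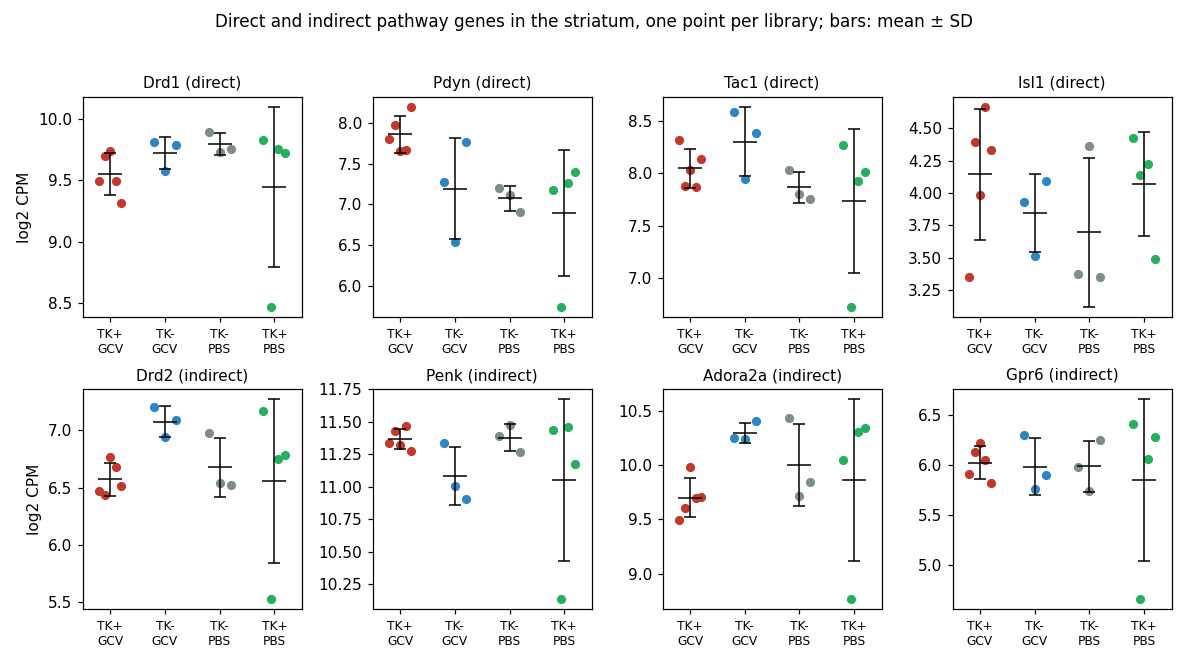
Points are log2 CPM of 1 striatum library each, for the 4 direct (top) and 4 indirect pathway genes (bottom) that were tested, by group, and bars are the mean ± SD. Pdyn is above every PBS library in all 5 ablated libraries, Adora2a and Drd2 are below every NestinTK-GCV+ library, and the lowest NestinTK+PBS+ point in 7 of the 8 genes is T2.

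Across all 8 members tested in the striatum, 0 were called at the study's thresholds (a change of 2-fold or more with an unadjusted p-value no higher than 0.01), which 0.694% of all genes met, and 0 had an adjusted p-value under 0.05, which 0.182% of all genes met. At an unadjusted p-value under 0.05 there were 2 members, Pdyn higher and Adora2a lower, where 10.5% of all genes passed. The median log2 fold change was 0.15 over the 4 direct genes and -0.10 over the 4 indirect genes, beside 0.0037 over all genes.

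Among the direct pathway receptors, Drd1 ranged from 9.32 to 9.73 in ablated striatum and from 9.57 to 9.90 in controls other than T2, which stood at 8.47, all on the log2 CPM scale. Its log2 fold change was -0.12 (SE 0.155, adjusted p = 0.845, edgeR). Chrm4, the muscarinic M4 receptor, had 0 to 3 counts in every striatum library. The annotated transcript of Chrm4 ends 0 bases after its stop codon (GENCODE vM21), while the other members have 308 to 1670 annotated bases there, and the striatum kit reads transcripts from their 3′ end. A low count there is therefore not read as a low level of Chrm4, whose SVZ libraries, made from whole transcripts, held 27 to 389 counts. Tac1 ranged from 7.87 to 8.31 in ablated striatum and from 6.73 to 8.58 in controls, and the groups overlapped, with a log2 fold change of 0.044 (SE 0.182). Isl1, a transcription factor of direct pathway neurons that striatal cholinergic cells also express, was the scarcest gene tested, with 29 to 96 counts a library. It ranged from 3.35 to 4.66 in ablated striatum and from 3.35 to 4.42 in controls (log2 fold change 0.26, SE 0.228).

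Among the indirect pathway receptors, Adora2a and Drd2 were lower in ablated striatum in value without passing the adjusted threshold. Adora2a, the adenosine receptor of indirect pathway neurons, stood at log2 CPM 9.50, 9.61, 9.98, 9.70 and 9.71 in ablated mice. It stood at 10.25, 10.24 and 10.40 in NestinTK-GCV+ mice, at 10.43, 9.72 and 9.85 in NestinTK-PBS+ mice and at 10.04, 8.77, 10.30 and 10.34 in NestinTK+PBS+ mice. All 5 ablated libraries lay below all 3 NestinTK-GCV+ libraries and overlapped the NestinTK-PBS+ libraries. Of the 4 NestinTK+PBS+ libraries 3 lay above all ablated ones, and T2 lay below them all. The log2 fold change against all controls was -0.39 (SE 0.182, unadjusted p = 0.0413, adjusted p = 0.451, edgeR), and without T2 it was -0.49 with an adjusted p-value of 0.0636. Leaving out each mouse in turn moved the log2 fold change between -0.49 and -0.34. The unadjusted p-value lay above 0.05 without any 1 of 10 mice, with the highest value of 0.101 without A1, and was 0.0940 with limma-voom.

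Drd2 stood at log2 CPM 6.47, 6.44, 6.77, 6.68 and 6.51 in ablated striatum. It stood at 7.20, 6.94 and 7.09 in NestinTK-GCV+ mice, at 6.97, 6.54 and 6.52 in NestinTK-PBS+ mice and at 7.17, 5.53, 6.75 and 6.79 in NestinTK+PBS+ mice. Like Adora2a, Drd2 was lower in all 5 ablated than in all 3 NestinTK-GCV+ libraries, a gap that 5.86% of all genes showed in this direction, and it overlapped both PBS groups. Its log2 fold change against all controls was -0.24 (SE 0.180, adjusted p = 0.686). Gpr6, an orphan receptor enriched in indirect pathway neurons, ranged from 5.82 to 6.22 in ablated striatum and from 4.67 to 6.41 in controls (log2 fold change 0.034, SE 0.184). Penk, the enkephalin precursor, was the most abundant member at 2642 ± 145 CPM in ablated striatum (SD, n = 5) and 2357 ± 536 CPM in controls (SD, n = 10), with a log2 fold change of 0.16 (SE 0.151).

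Without T2, 4 members had an unadjusted p-value under 0.05 in the striatum: Pdyn (0.66), Adora2a (-0.49), Drd2 (-0.33, adjusted p = 0.295) and Drd1 (-0.21, adjusted p = 0.359, edgeR), each value being a log2 fold change. Without the 4 libraries that stood apart the same 4 genes did, with adjusted p-values from 0.124 for Pdyn to 0.629 for Drd1. The shares of all genes that passed in these fits are not given here. Whether more genes passed throughout therefore cannot be told from these counts. T2 was the lowest library in 7 of the 8 genes, and in Isl1 it lay 0.047 above the median.

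The ablated mice were also set against single control groups. These comparisons come from a fit of all 4 groups and share the ablated libraries. NestinTK-GCV+ mice got the same drug and lack the transgene. Against them Pdyn was higher (log2 fold change 0.60, unadjusted p = 0.0315, adjusted p = 0.227), Adora2a lower (-0.59, unadjusted p = 0.0147, adjusted p = 0.153) and Drd2 lower (-0.50, unadjusted p = 0.0280, adjusted p = 0.214, edgeR). Of all genes 17.7% had an unadjusted p-value under 0.05. In a fit of these 8 mice alone, Adora2a (-0.62, adjusted p = 0.00373) and Drd2 (-0.53, adjusted p = 0.0182, edgeR) passed the adjusted threshold and Pdyn did not (0.57, adjusted p = 0.0765). The share of all genes that passed in that fit is not given here, so the count is not read as particular to the members. In the 4-group fit 483 of 15419 genes passed the adjusted threshold of 0.05 in this comparison, and 0 members did. Against NestinTK+PBS+ mice, which carry the transgene and got PBS, Pdyn was higher (0.85, unadjusted p = 0.00167, adjusted p = 0.167, edgeR) and no other member had an unadjusted p-value under 0.05, where 10.1% of all genes did. That count rested on T2. Without it 3 members had an unadjusted p-value under 0.05, where 7.47% of all genes did: Adora2a (-0.53, adjusted p = 0.207), Pdyn (0.59, adjusted p = 0.300) and Drd2 (-0.34, adjusted p = 0.538, edgeR). Against the NestinTK-PBS+ mice alone, in a fit of these mice, the log2 fold change was 0.80 for Pdyn (adjusted p = 0.00245), -0.33 for Adora2a (adjusted p = 0.394) and -0.24 for Drd1 (adjusted p = 0.494, edgeR), each with an unadjusted p-value under 0.05. The share of all genes with such a p-value in that fit is not given here either. All NestinTK-PBS+ mice belong to the earlier mouse number series and all ablated mice to the later one, and they differ in transgene and drug, so that in this comparison series, transgene and drug cannot be told apart. G1 and T1 also belong to the earlier series, so the comparisons with NestinTK-GCV+ and NestinTK+PBS+ mice are not matched for series. With NestinTK+PBS+ mice, drug and library numbering also cannot be told apart.

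GCV without the transgene and the transgene without GCV gave no member an unadjusted p-value under 0.05 in the striatum, where 16.1% and 6.41% of all genes passed. The difference nearest to the threshold was that of Tac1 between NestinTK-GCV+ and NestinTK-PBS+ mice (0.46, SE 0.243, unadjusted p = 0.0728, adjusted p = 0.364, edgeR). The interaction of transgene and GCV, the part of the ablated group's difference that the sum of both does not give, was 0.66 for Pdyn (SE 0.375, adjusted p = 0.431), 0.51 for Penk (SE 0.281), -0.54 for Adora2a (SE 0.330) and -0.49 for Drd2 (SE 0.316). It gave 0 of the 8 members an unadjusted p-value under 0.05 in edgeR's fit, where 15.1% of all genes passed. Without T2 the interaction was -0.79 for Adora2a (SE 0.205, adjusted p = 0.0308), which passed the adjusted threshold, -0.73 for Drd2 (SE 0.210, adjusted p = 0.0509) and -0.48 for Tac1 (SE 0.209, adjusted p = 0.227, edgeR). These 3 members had an unadjusted p-value under 0.05, where 17.2% of all genes did, while the interaction of Pdyn was 0.40 (adjusted p = 0.478, edgeR). The transgene without GCV still gave 0 members such a p-value without T2, where 6.71% of all genes had one.

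In the SVZ none of the 9 members differed between ablated and control mice at an unadjusted p-value under 0.05, where 9.81% of all genes passed. Hence 0 members were called at the study's thresholds (1.59% of all genes) and 0 had an adjusted p-value under 0.05 (0.00611% of all genes) with edgeR, DESeq2 or limma-voom. DESeq2 gave 1 member an unadjusted p-value under 0.05, Tac1. The biological coefficient of variation common to all genes was 0.939 in the SVZ against 0.251 in the striatum.

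Pdyn, the member with the largest difference in ablated striatum, stood in ablated SVZ at log2 CPM 6.86, 7.75, 6.20, 6.47 and 6.34. It stood at 8.03, 6.75 and 7.01 in NestinTK-GCV+ mice, at 6.73, 7.07 and 7.46 in NestinTK-PBS+ mice and at 7.12, 7.37, 6.95 and 6.76 in NestinTK+PBS+ mice. In 3 of the 5 ablated libraries Pdyn lay below all 10 controls, while A2 was above 9 of them. The log2 fold change was -0.34 (SE 0.257, adjusted p = 0.732, edgeR) and moved between -0.68 without A2 (unadjusted p = 0.00963, adjusted p = 0.400, edgeR) and -0.20 without G1.

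Tac1 stood in ablated SVZ at log2 CPM 9.65, 9.15, 9.03, 8.91 and 7.54. Its controls ranged from 7.75 to 9.03. Of the controls only G3 stood above 8.91, while A5 stood below all 10 of them. The log2 fold change was 0.47 (SE 0.243, adjusted p = 0.551) and became 0.69 (adjusted p = 0.409, edgeR) without A5, 0.25 without A1 and 0.15 with library sizes set by the MSN list. Drd2 had a log2 fold change of 0.38 (SE 0.208, adjusted p = 0.587, edgeR) in the SVZ, with ablated libraries between 7.40 and 8.87 and controls between 7.22 and 8.37. Penk had one of 0.26 (SE 0.234), with ablated libraries between 9.68 and 11.75 and controls between 10.08 and 11.46. Without A3 the log2 fold changes were 0.20 for Drd2 and 0.056 for Penk.

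The remaining members lay closer to no difference. Drd1 had a log2 fold change of -0.044 (SE 0.209), Adora2a of 0.12 (SE 0.259), Gpr6 of -0.057 (SE 0.309), Isl1 of 0.13 (SE 0.478) and Chrm4 of -0.13 (SE 0.571). The last 2 were the scarcest, and the fit left wide room for them in either direction. SVZ library A5 lay below the median in all 9 members, with Gpr6 and Isl1 at 5.02 and 0.88 log2 CPM. Control library P1 did so too, with a median deviation of -0.225 against -1.14 in A5. Without A5, and likewise without both SVZ libraries that stood apart, 3 members had an unadjusted p-value under 0.05, all higher in ablated mice: Tac1, Drd2 and Penk (0.62, 0.48 and 0.41 without both, with adjusted p-values of 0.378, 0.413 and 0.414, edgeR). The shares of all genes that passed in these fits are not given here. Over all SVZ libraries the 14 shared MSN genes were also all higher in value, by a median of 0.33. The 4-group comparisons gave 0 members an unadjusted p-value under 0.05 in the SVZ with edgeR. Among all genes 7.45% passed against NestinTK-GCV+ mice, 7.13% against NestinTK+PBS+ mice, 7.65% for GCV alone, 2.69% for the transgene alone and 5.09% for the interaction.

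**Figure D3:**
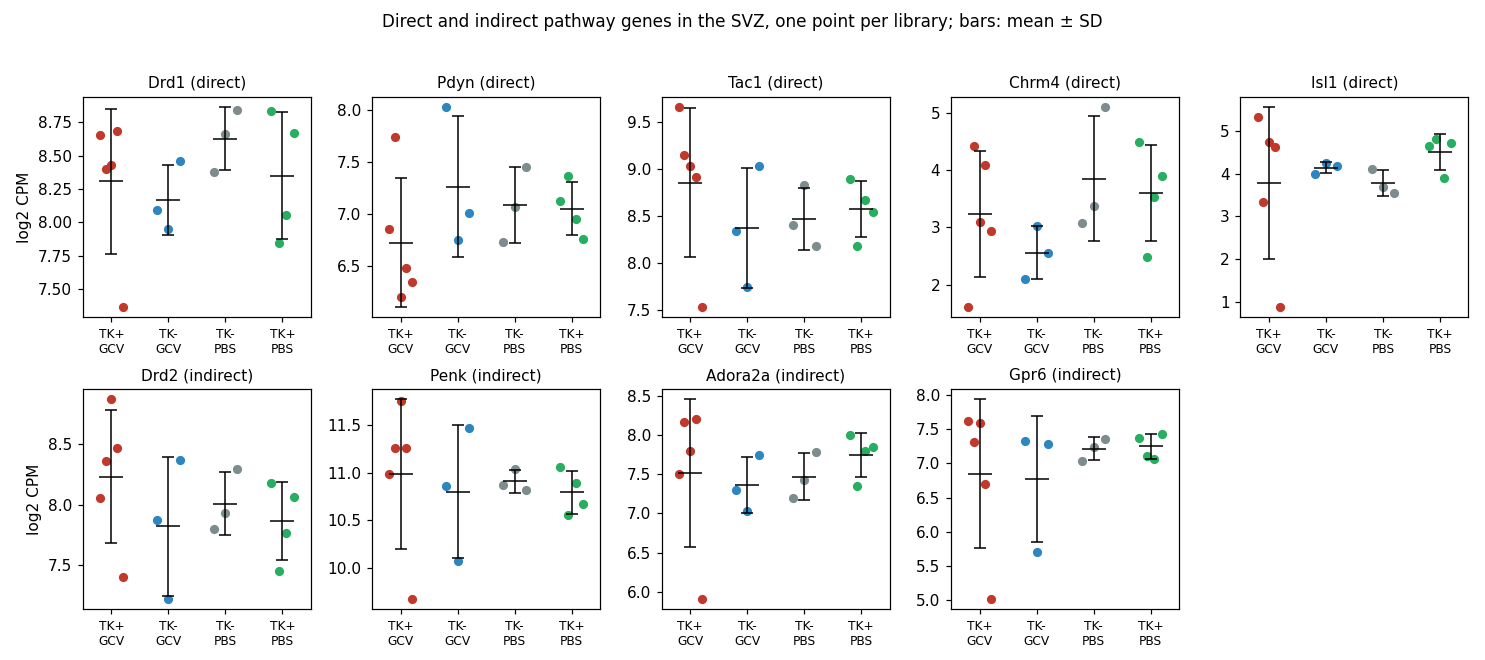
Points are log2 CPM of 1 SVZ library each, for the 5 direct (top) and 4 indirect pathway genes (bottom), by group, and bars are the mean ± SD. The ablated groups overlap the controls in all 9 genes, and the lowest ablated point of Drd1, Tac1, Isl1 and all 4 indirect genes is A5.

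Levels of different genes can be set against each other in the SVZ per length. In control SVZ, Penk stood at 1145 ± 278 CPM per kb of exon (SD, n = 10), far above the rest. Tac1 followed at 109 ± 28.2, Drd2 at 96.1 ± 22.7, Drd1 at 94.5 ± 23.9, Gpr6 at 79.7 ± 19.4, Adora2a at 62.5 ± 13.7 and Pdyn at 50.2 ± 16.3 CPM per kb. Chrm4 stood at 8.64 ± 6.48 and Isl1 at 4.74 ± 1.44 CPM per kb. Neighbours in the order from Tac1 to Pdyn, and Chrm4 and Isl1, differed by less than the larger SD of the pair. That SD is between libraries, while both genes of a pair were measured in the same libraries, so it does not decide their order. The exons of Penk share bases with A830012C17Rik on the other strand, and whether reads were counted by strand is not stated, so its count may hold reads of both.

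The change in the striatum was set against that in the SVZ of the same mice, gene by gene. The difference between the tissues was largest for Pdyn, whose change was 1.22 higher on the log2 scale in the striatum (SE 0.387, unadjusted p = 0.00636, adjusted p = 0.337 over 14197 genes, limma on the within-mouse differences). It was the only one of 8 members with an unadjusted p-value under 0.05, and 10.0% of all genes passed. Leaving out each mouse in turn kept this difference between 1.04 and 1.45. Drd2 had a difference of -0.52 (SE 0.279), Adora2a of -0.30 (SE 0.429), Isl1 of 0.66 (SE 0.640), Gpr6 of 0.34 (SE 0.401), Tac1 of -0.27 (SE 0.339), Penk of 0.050 (SE 0.328) and Drd1 of -0.014 (SE 0.283). The tissues were prepared with different kits, and kit and tissue cannot be told apart.

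**Figure D4:**
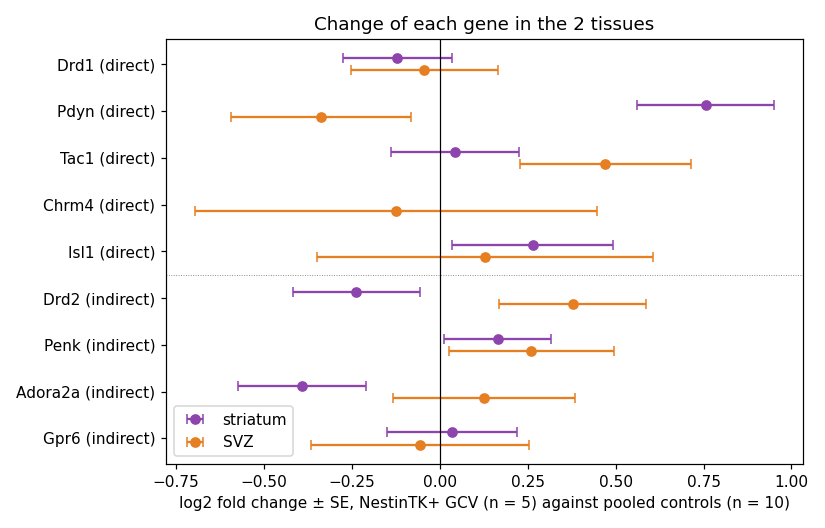
Points are log2 fold changes of NestinTK+GCV+ against pooled control mice with their SE, for the striatum and the SVZ. Pdyn stands at 0.76 in the striatum and at -0.34 in the SVZ, and Chrm4 was tested in the SVZ only.

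The direct to indirect ratio of a library, the mean log2 CPM of its direct genes minus that of its indirect genes, was higher in ablated striatum. It stood at -1.06, -0.91, -1.22, -1.05 and -0.83 in ablated mice. It stood at -1.37, -1.59 and -1.07 in NestinTK-GCV+ mice, at -1.57, -1.11 and -1.53 in NestinTK-PBS+ mice and at -1.34, -1.01, -1.35 and -1.49 in NestinTK+PBS+ mice. The mean was -1.02 ± 0.148 (SD, n = 5) in ablated mice and -1.34 ± 0.213 (SD, n = 10) in controls, a difference of 0.33, and the groups overlapped. No test was made of the ratio, since its genes were chosen with the results known. The difference lay between 0.28 and 0.38 with each mouse left out. Pdyn carried much of it, and over the other direct genes it was 0.14. It was 0.048 when the counts of a pathway were summed before the ratio, where Penk and Adora2a outweigh the rest, and 0.093 for Drd1 and Drd2 alone. The ratio of Pdyn to Penk was -3.51 ± 0.271 in ablated mice and -4.12 ± 0.398 in controls.

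In the SVZ the ratio was lower in ablated mice, at -2.12, -2.17, -2.70, -2.10 and -1.99 against -2.47 to -1.57 in controls. The means were -2.22 ± 0.279 (SD, n = 5) and -2.03 ± 0.239 (SD, n = 10), a difference of -0.18 that is smaller than either SD. It lay between -0.24 and -0.059 with each mouse left out, the latter without A3, and was -0.060 with summed counts. For Drd1 and Drd2 alone the SVZ ratio was 0.073 ± 0.378 in ablated mice and 0.48 ± 0.223 in controls.

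**Figure D5:**
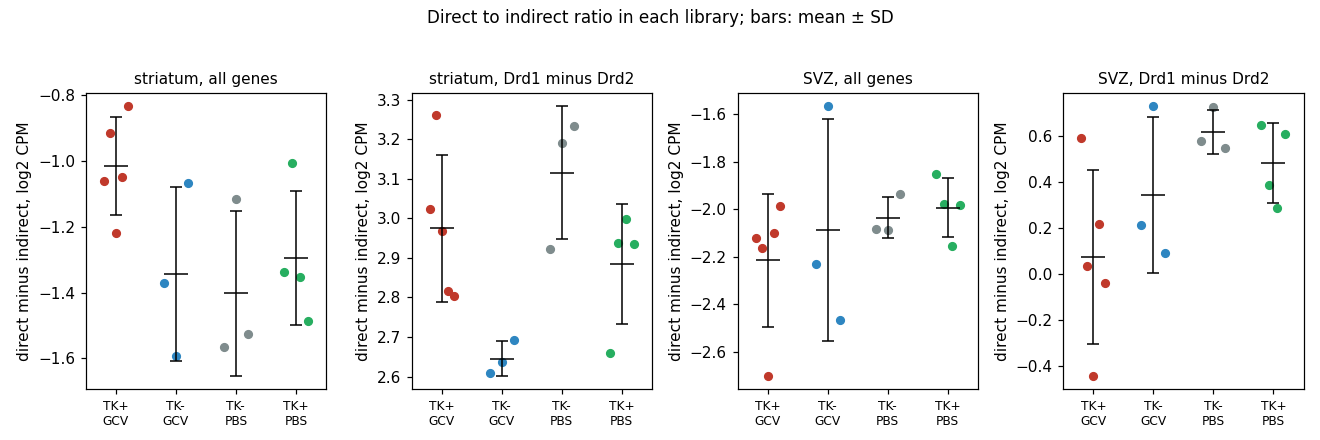
Points are the direct minus indirect log2 CPM of 1 library each, over all tested genes or for Drd1 minus Drd2, by group, with the mean ± SD. The striatal ratio over all genes averages -1.02 in ablated and -1.34 in control mice, while that of Drd1 to Drd2 averages 2.97 and 2.88.

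Other genes of the pathways were read from further lists. Of 4 other direct genes (Eya1, Slc35d3, Sfxn1 and Ebf1) and 4 other indirect genes (Sp9, Grik3, Ttc12 and Plxdc1), 0 passed an unadjusted p-value under 0.05 in either tissue in edgeR's fit. Their median log2 fold changes were 0.062 and 0.077 in the striatum and 0.35 and 0.62 in the SVZ. The 14 shared MSN genes had a median of -0.017 in the striatum, where Rasd2, a small GTP-binding protein enriched in striatum, was the only one with an unadjusted p-value under 0.05 (-0.34, adjusted p = 0.438, edgeR). Ppp1r1b, which encodes DARPP-32, the protein that relays dopamine signals in both kinds of MSN, stood at -0.054 (SE 0.142) there. In the SVZ all 14 were higher in value, by a median of 0.33, and 0 had an unadjusted p-value under 0.05 in edgeR's fit. With library sizes set by this list, the SVZ values of Drd2 and Adora2a became 0.10 and -0.24.

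Genes of receptors for these peptides and for other transmitters, and genes that process peptides, were added after the values were seen. Of 7 receptor genes tested in the striatum 1 had an unadjusted p-value under 0.05, a share near the 10.5% of all genes. It was Oprk1, the receptor for dynorphin (log2 fold change 0.57, unadjusted p = 0.0318, adjusted p = 0.420, edgeR). The 6 genes of peptide processing were all lower in value in the striatum, with a median of -0.12, and none passed. In the SVZ 1 of 9 receptor genes had an unadjusted p-value under 0.05, near the 9.81% of all genes. It was Tacr1, the substance P receptor (1.31, unadjusted p = 0.0134, adjusted p = 0.385, edgeR). Of the peptide processing genes there, Pcsk1n (0.51, adjusted p = 0.347) and Pam (0.40, adjusted p = 0.385, edgeR) had unadjusted p-values under 0.05.

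Markers of other cell types differed between the groups. In the SVZ markers of neuroblasts and dividing cells, and those of ependymal and choroid plexus cells, were lower in value in ablated mice. All 5 neuroblast markers (median log2 fold change -1.76), 3 of 4 dividing cell markers (median of the 4, -4.02), 1 of 4 ependymal markers (median -0.90) and all 4 choroid plexus markers (median -5.43) had an unadjusted p-value under 0.05 with edgeR, where 9.81% of all genes did. Of these markers 0 had an adjusted p-value under 0.05. In the other direction, 1 of 4 microglia markers (Csf1r, 0.55) and 1 of 3 endothelial markers (Flt1, 0.53) passed the unadjusted threshold. In ablated striatum Pvalb, 1 of 4 markers of other interneurons, stood at -1.90 (unadjusted p = 0.00384, adjusted p = 0.214, edgeR). The rest of that list, Npy (0.11), Sst (0.11) and Th (0.31), was higher in value. Its summed level was 736 CPM in T2, against 279 CPM in T3, the next highest striatum library. A value of Pvalb without T2 is not given here. In ablated striatum all 6 oligodendrocyte markers were lower in value, with a median log2 fold change of -0.64, and Mag passed (-0.91, adjusted p = 0.0117, edgeR). Their summed level was 1971 to 2652 CPM in ablated and 2005 to 5783 CPM in control libraries. Summed cortical markers ranged from 10.5 to 117 CPM in ablated and from 5.34 to 525 CPM in control striatum. Mitochondrial transcripts took 13.1% to 17.0% of the counts of ablated and 6.69% to 15.2% of those of control SVZ libraries. The choroid plexus gene Ttr took over 1% in 3 control SVZ libraries (P1, P2 and T3) and in no ablated one. Summed choroid plexus markers were 100430, 45607 and 99968 CPM in these, against 809 CPM in T1, the next highest SVZ library. The part of each in the members' values was not tested.

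The genes whose pattern across libraries was most like those of Drd1 and Drd2 were found by Pearson's r. In the striatum Drd1 followed Tacc1 (r = 0.958), Bcl11b (r = 0.957) and Ppp1r1b (r = 0.951) most closely over 15 libraries and 15418 genes. Drd2 followed Arpc2 (r = 0.952), Hpca (r = 0.949) and Rbfox1 (r = 0.945). Among the members Adora2a ranked 37 for likeness to Drd2 (r = 0.901) and Gpr6 ranked 51 for likeness to Drd1 (r = 0.886), while Pdyn stood at rank 1592 for Drd1 (r = 0.50). In the SVZ Drd1 followed Rgs9 (r = 0.893), Zswim6 (r = 0.870) and Scn4b (r = 0.869), and the genes most like Drd2 included Akap9 (r = 0.930) and Phactr1 (r = 0.925), over 15 libraries and 16374 genes. Penk ranked 16 for Drd2 there (r = 0.881). These correlations describe libraries that share depth and tissue composition, and the low libraries carry much of them. Over the 11 striatum libraries that did not stand apart, r was 0.628 for Drd1 with Drd2 (0.856 over all) and -0.71 for Drd1 with Pdyn. These libraries hold ablated and control mice, so r also takes in the difference between the groups. For Drd1, Tacc1 then ranked 22, Bcl11b 231, Ppp1r1b 263 and Gpr6 1735. For Drd2, Arpc2 ranked 30, Hpca 58, Rbfox1 9 and Adora2a 202.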

How the data were processed

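RNA was sequenced from the SVZ and striatum of the same 15 mice. Per the labels and the study's methods, the SVZ was prepared with the SMART-Seq v4 kit (whole transcripts) and the striatum with QuantSeq 3′ FWD, reads were trimmed (Trimmomatic 0.36 per the labels, another version per the methods), aligned to GRCm38/mm10 (STAR 2.5.3a) and counted per gene with featureCounts, and the authors deposited raw counts with no normalization. Its strand setting is not stated.

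Groups, genotypes and treatments came from the labels. Within each tissue, the filter kept genes above 1 CPM in 3 or more libraries. After TMM scaling, the quasi-likelihood test of edgeR 4.0.16 was run in R 4.3.3, and p-values were adjusted after Benjamini-Hochberg across every gene that passed. NestinTK+GCV+ mice were compared with the 10 pooled controls, as the study pooled them, and in a fit of all 4 groups. Log2 CPM used a prior count of 2. The change in the striatum minus that in the SVZ was fitted with limma 3.58.1 on within-mouse differences, which keeps the mouse as a block. The libraries of a mouse come from the same animal. Across genes their deviations from the group means correlated between -0.042 and 0.157. Fits were tested on simulated data. Alternatives were DESeq2 1.42.0, limma-voom, other scalings, filters and controls, and each mouse left out. No 2 libraries of a tissue held identical values. Whether the mice of a group shared a litter is not stated, and intervals of reads without molecular identifiers would cover counting error only.

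The members and lists were chosen with earlier results of these data known. Named genes are the members, Ppp1r1b, those of the other pathway and MSN lists with an unadjusted p-value under 0.05, and the 3 genes most like Drd1 and Drd2, of which 1 is not reported here. Other genes named, and the libraries called apart (cortical markers over 100 CPM, or the MSN list more than 0.8 below the median), the 4-group comparisons without T2 and the ratio without Pdyn were chosen after values were seen. Positions are from GENCODE vM21 and promoters from RefSeq, where Penk and Adora2a have no entry. Figures used matplotlib 3.10.9.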

Additional observations from a re-analysis of the deposited data

Results flagged for a closer look

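Values far from the rest of their group were looked for in 57 sets of 4 to 10 libraries (Dixon's test at 95%), of which chance flags about 1 in 20, and 11 were found. The striatum library T2 gave 8 of them. Among the NestinTK+PBS+ mice it was lowest in Drd1 (8.47 log2 CPM, the others between 9.72 and 9.83, gap 0.926 of the range) and in Pdyn (gap 0.867 of the range). Among the 10 controls it was lowest in Drd1 (gap 0.775), Tac1 (0.555), Drd2 (0.593), Penk (0.577), Adora2a (0.572) and Gpr6 (0.618). The same library had the highest summed oligodendrocyte markers (5783 CPM) and the highest share of Ttr (0.142% of counts) of the 15, and the part of these in its values was not tested.

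In the SVZ, A5 was lowest in Drd1 among the ablated mice (7.37 log2 CPM, the others between 8.40 and 8.69, gap 0.781 of the range). G2 was lowest in Gpr6 among the 10 controls (5.71 against 7.03 to 7.44, gap 0.766). A3 had the lowest direct to indirect ratio among the ablated mice (-2.70 against -2.17 to -1.99, gap 0.751).

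The change of Pdyn differed between the tissues by 1.22 on the log2 scale, higher in the striatum (unadjusted p = 0.00636, adjusted p = 0.337, limma).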

How the results depend on the processing

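The log2 fold change of Pdyn in the striatum was positive under every alternative run, from 0.57 to 0.85, and that of Adora2a was negative, from -0.62 to -0.28. Adjusted p-values ranged from 0.00245 to 0.419 for Pdyn and from 0.00373 to 0.932 for Adora2a. The number of striatal members with an adjusted p-value under 0.05, 0 as reported, was 1 with DESeq2, with no filter on low counts and with NestinTK-PBS+ controls, 2 with NestinTK-GCV+ controls, and 0 to 1 with each mouse left out. The number with an unadjusted p-value under 0.05 (2 as reported) was 1 with limma-voom, with NestinTK+PBS+ controls and with mice of the later number series only, 4 without the libraries that stood apart and 1 to 4 with each mouse left out. In the SVZ it was 1 with DESeq2, 3 without the libraries that stood apart and 0 to 3 with each mouse left out. Shares of all genes under these alternatives are not given here. The striatal ratio difference of 0.33 was 0.048 with summed counts and 0.093 for Drd1 and Drd2 alone.

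In the striatum the direction turned for Tac1 with NestinTK-GCV+ controls (-0.30) and without the libraries apart (-0.039), for Gpr6 without those (-0.079), for Penk with NestinTK-PBS+ controls (-0.013), and for Drd1 with NestinTK+PBS+ controls (0.011), the number series as a covariate (0.021) or the later series only (0.011). With each mouse left out, Tac1 lay between -0.048 and 0.12 and Gpr6 between -0.060 and 0.083. In the SVZ, limma-voom turned Isl1 (-0.34), and library sizes from the MSN list turned Isl1 (-0.38), Penk (-0.082) and Adora2a (-0.24). NestinTK-GCV+ controls turned Drd1 (0.20), Chrm4 (0.95) and Gpr6 (0.16), and NestinTK+PBS+ controls Isl1 (-0.19) and Adora2a (-0.064). The number series as a covariate turned Drd1 (0.15), Chrm4 (0.33), Isl1 (-0.042) and Gpr6 (0.068), and the later series only gave 0.14, 0.32, -0.043 and 0.059 for these. Without the libraries apart Drd1 stood at 0.086 and Gpr6 at 0.099. With each mouse left out SVZ values lay between -0.13 and 0.13 for Drd1, -0.47 and 0.18 for Chrm4, -0.25 and 0.43 for Isl1, -0.031 and 0.36 for Adora2a and -0.22 and 0.20 for Gpr6. Without T2 (NestinTK+PBS+), striatal values turned against NestinTK+PBS+ mice for Tac1 (-0.023), Gpr6 (-0.23) and Drd1 (-0.21), for the transgene alone for Pdyn (0.20), Tac1 (0.21), Drd2 (0.23), Gpr6 (0.25) and Adora2a (0.20), and in the interaction for Gpr6 (-0.22) and Drd1 (-0.14). None of these turned values had an adjusted p-value under 0.05, and the cause was not tested.

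For the difference between tissues, leaving out the mouse as a block (the pairing of libraries) gave Pdyn the same 1.22 with an adjusted p-value of 0.152, and edgeR's joint fit with the block gave 1.19 with 0.255 and 2 members with an unadjusted p-value under 0.05, Pdyn and Drd2. With each mouse left out 1 to 3 members passed, and the difference lay between -0.19 and 0.095 for Drd1, -0.11 and 1.24 for Isl1, -0.26 and 0.25 for Penk and -0.069 and 0.56 for Gpr6. The block changed no other call. Chrm4 could not be measured in the striatum at 0 to 3 counts. The SE of the members' log2 fold changes was 0.208 to 0.571 in the SVZ, so that a change of that size was not detectable there. Changes larger than their SE could be missed too, and Tac1 at 0.47 (SE 0.243, unadjusted p = 0.0680, edgeR) did not pass.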
